A study of Mus musculus with 24 samples.

Results

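The lysosomal genes described here are 41 genes for acid hydrolases, lysosomal membrane proteins, the proton pump that acidifies the organelle, the transcription factors Tfeb and Tfe3, and the secreted precursor progranulin. Members were taken by symbol from a list of lysosomal genes, each of the 41 was found once among the 47372 genes of the deposited tables, and the rule uses no measured value. The set holds 8 cysteine proteases, 3 other peptidases, 7 glycosidases, 5 lipid hydrolases or their activators, 8 membrane proteins, 7 proton pump subunits, 2 transcription factors and progranulin. All 41 passed the filter on low values in every comparison.

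RNA was sequenced from 24 libraries of mouse bone-marrow-derived macrophages, which are macrophages grown in culture from marrow cells with medium conditioned by L929 fibroblasts. Marrow came from 6 mice of 8 to 12 weeks labelled C57BL/6J, of which 3 had intact liver X receptors (LXR-positive) and 3 were whole-animal double knockouts of LXRα and LXRβ (DKO). The cells of each mouse were split over 4 treatments, giving 8 groups of 3 libraries: vehicle, KLA (Kdo2-lipid A, an agonist of Toll-like receptor 4) at 100 ng/ml for 17 hours, the synthetic LXR agonist GW3965 at 1 µM for 17 hours, and acetylated low-density lipoprotein (AcLDL, a modified lipoprotein that loads macrophages with cholesterol) at 50 µg/ml, for which no duration is given in the sources used here. The comparisons ask how each treatment moved the lysosomal genes, whether it did so differently without LXR, and whether the genotypes differed under a given treatment.

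Lysosomes are the acidic compartments in which macrophages break down engulfed particles, lipoproteins and worn-out organelles. Their hydrolases are made as precursors, sorted from the Golgi apparatus and activated at low pH, which the vacuolar proton pump maintains at the cost of ATP. Tfeb and Tfe3 are related transcription factors that reach the nucleus when lysosomal nutrient signalling falls and bind an E-box-like element near many lysosomal genes. Liver X receptors are nuclear receptors for oxidized sterols that turn on cholesterol export.

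Library size ranged from 6448579 to 17348717 reads in the LXR-positive and from 9705391 to 27189081 reads in the DKO libraries, so depth and genotype cannot be told apart except by thinning the reads. Nr1h2, the gene for LXRβ, stood at 438 to 821 normalized counts in the 12 LXR-positive libraries and at 275 to 399 in the 12 DKO libraries, with no overlap. Nr1h3, the gene for LXRα, ranged from 114 to 1267 and from 123 to 751, so its gene total does not show the deletion and checks nothing. All 9 macrophage markers were present in every group, with summed levels of 220872 to 449971 normalized counts in LXR-positive and 139696 to 338852 in DKO libraries. The summed neutrophil markers were 2292 to 6565 and 3424 to 12003, and the summed stromal markers 75.8 to 1046 and 214 to 7052. In bulk RNA, fewer cells of a type and less RNA per cell cannot be told apart.

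Per kilobase of exon, the lysosomal transcripts spanned a wide range of abundance. Over the 24 libraries the highest mean was that of Ctss (cathepsin S, which trims the MHC class II invariant chain) at 41897 normalized counts per kilobase. It was followed by Psap (prosaposin, the precursor of the saposin activators) at 20127, the aspartic protease gene Ctsd at 18907, Ctsb (cathepsin B) at 14615, Gpnmb at 7739 and Lamp1 at 7736. With KLA the order differed: in LXR-positive libraries Ctss (29606) was followed by Ctsd (17429), Ctsz (12175), Psap (10149), Ctsb (8953) and Lamp1 (8846), with Gpnmb at 3698 normalized counts per kilobase. The lowest were Smpd1 (acid sphingomyelinase) at 65.3 and Tfeb at 67.8 normalized counts per kilobase. The 41 genes together took 3.45% to 4.26% of all normalized counts in the 18 libraries without KLA and 2.22% to 2.74% in the 6 libraries with KLA, so the KLA libraries lay below all others.

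Promoter sequence was read for 35 of the 41 genes from RefSeq (build GRCm38.p6, 250 bases before to 50 bases after each transcription start, 300 bases in all). Ctsb, Ctsh, Asah1, Atp6v1b2, Atp6v1c1 and Atp6v1h had no entry. The 8-letter string TCACGTGA, a palindrome that contains the shorter E-box CACGTG and therefore reads alike on both strands, is the core of the element bound by Tfeb and Tfe3. It occurred in 7 of the 35 genes (20.0%) and in 304 of the 27025 genes with a promoter entry (1.12%). The shorter CACGTG occurred in 12 of 35 (34.3%) against 8.09% of all genes. Stretches around the string are shown for the 7 genes that hold it, with TCACGTGA in capitals, followed by the bases around the transcription start of Atp6v0a1 and Gpnmb, which hold no such string in the window and which changed most with KLA among the pump and membrane protein genes of the 41. Of the 7, the 6 other than Atp6v0d1 were added after their values had been seen.

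Atp6v0d1, chr8:105566035-105566094, minus strand: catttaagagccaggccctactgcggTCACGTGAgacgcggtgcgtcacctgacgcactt
Atp6v1a, chr16:44139358-44139417, minus strand: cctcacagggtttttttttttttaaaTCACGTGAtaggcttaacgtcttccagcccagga
Ctsa, chr2:164833742-164833801, plus strand: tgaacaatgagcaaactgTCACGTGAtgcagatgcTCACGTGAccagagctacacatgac
Ctsd, chr7:142387893-142387952, minus strand: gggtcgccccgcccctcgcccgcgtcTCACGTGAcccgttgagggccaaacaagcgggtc
Gla, chrX:134601184-134601243, minus strand: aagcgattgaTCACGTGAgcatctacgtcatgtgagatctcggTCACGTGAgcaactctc
Cln3, chr7:126583325-126583384, minus strand: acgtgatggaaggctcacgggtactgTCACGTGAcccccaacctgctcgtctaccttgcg
Mcoln1, chr8:3500447-3500506, plus strand: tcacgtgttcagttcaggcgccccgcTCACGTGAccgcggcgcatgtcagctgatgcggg
Atp6v0a1, chr11:101010328-101010427, plus strand: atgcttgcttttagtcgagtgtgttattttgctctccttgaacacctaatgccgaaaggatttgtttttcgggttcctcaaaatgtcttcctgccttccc
Gpnmb, chr6:49036448-49036547, plus strand: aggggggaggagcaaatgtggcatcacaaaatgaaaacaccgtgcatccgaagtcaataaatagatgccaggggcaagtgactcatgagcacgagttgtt

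The string began 4 bases before the first transcribed base in Atp6v0d1, 46 in Mcoln1, 99 in Ctsd, 122 in Cln3 and 132 in Atp6v1a. Ctsa held it 2 times, 13 bases before the start and just after it, and Gla held it 2 times, 228 and 195 bases before. A match describes the letters and does not show binding. For Atp6v0a1, Atp6v0d1, Gm2a, Gpnmb, Grn, Ppt1 and an entry of Lgmn, the bases just after the start matched no GENCODE M21 transcript of the gene. The start of these entries may not be the one in use, so a lack of the string there decides nothing. The Atp6v0a1 entry lies inside the annotated gene, which begins at 101009452.

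In both genotypes KLA lowered the transcripts of the proteases Ctsb, Ctss and Lgmn, the glycosidase Hexa, the membrane proteins Gpnmb, Laptm5 and Scarb2, the pump subunit Atp6v0a1 and Tfeb, and raised Ctsc, Ctsz, Neu1 and Ppt1. Of the 41 genes, 17 passed the test in LXR-positive macrophages, 6 higher and 11 lower (limma on log2(normalized count + 1), adjusted p under 0.05 over all 15957 genes tested, of which 28.6% passed). In DKO macrophages 16 passed, 4 higher and 12 lower, where 25.2% of all genes passed. The lower calls were 11 and 12 of 41, beside 12.4% and 11.1% of all genes, and the higher calls were 6 and 4, beside 16.2% and 14%. The median log2 fold change of the 41 genes was -0.13 in LXR-positive and -0.18 in DKO macrophages, while the median of all tested genes was 0.00 in both.

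**Figure D1:**
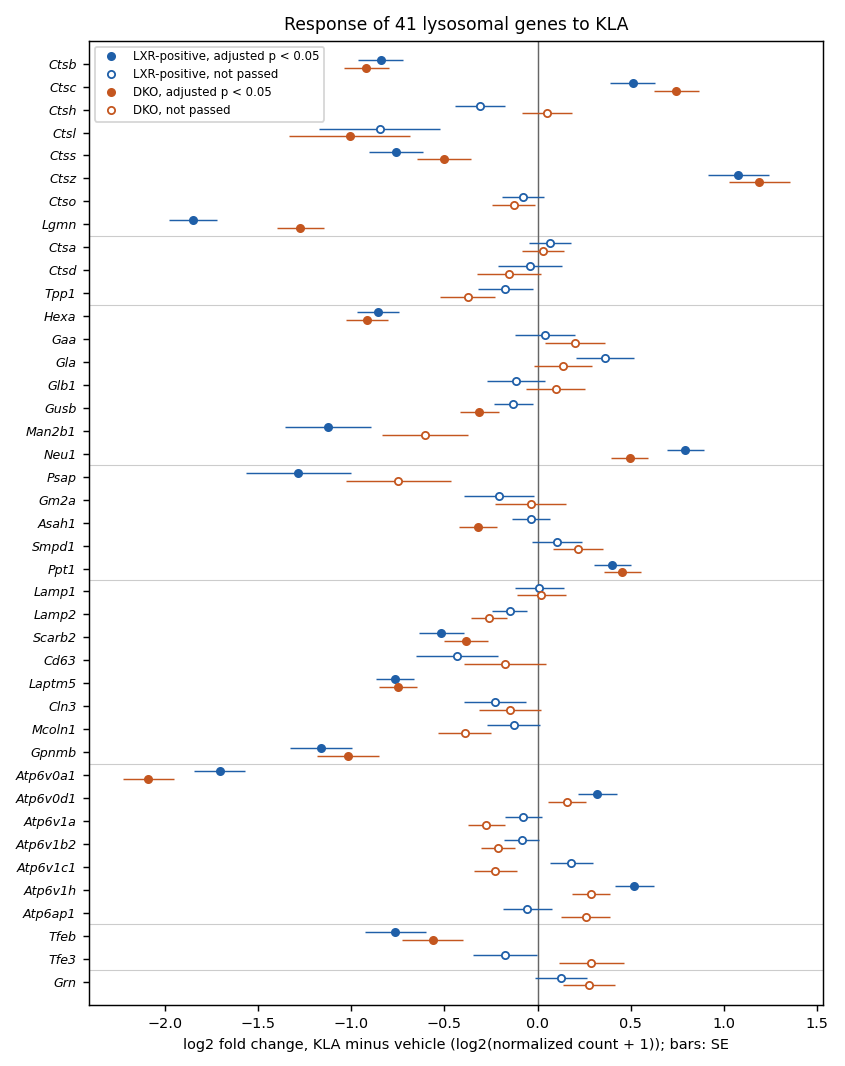
Log2 fold change with KLA (x axis, KLA minus vehicle on the log2(normalized count + 1) scale, bars are the standard error) of the 41 lysosomal genes (y axis, grouped by role) in LXR-positive (blue) and DKO (orange) macrophages, 3 libraries per group. Filled points passed limma at adjusted p under 0.05: Lgmn, Atp6v0a1 and Gpnmb lie far to the left in both genotypes, and Ctsz and Neu1 to the right.

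Among the cysteine proteases the direction differed from gene to gene. Lgmn (legumain, an asparaginyl endopeptidase that also processes cathepsins; ENSMUSG00000021190, GRCm38 chromosome 12, 102394084 to 102439813) stood at 14534, 14332 and 13288 normalized counts in the LXR-positive vehicle libraries and at 3691, 3602 and 4449 with KLA. In DKO libraries it stood at 13068, 16298 and 15683 with vehicle and at 5506, 7069 and 6082 with KLA. The KLA libraries were all below the vehicle libraries of their genotype, and the DKO KLA libraries were all above the LXR-positive ones. The log2 fold change of Lgmn was -1.85 ± 0.13 (SE) in LXR-positive and -1.27 ± 0.13 in DKO macrophages (limma adjusted p = 1.2e-06 and 2.2e-05).

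Ctsb, with the highest mean count of the 41 over the 24 libraries though not in the DKO KLA group, where Ctss was slightly higher (ENSMUSG00000021939, chromosome 14, 63122462 to 63145919), stood at 90969, 95099 and 82707 normalized counts in DKO vehicle libraries and at 45672, 49306 and 46974 with KLA. Vehicle and KLA libraries did not overlap, and the KLA libraries lay close together. In LXR-positive libraries the mean went from 97388 ± 9795 to 54176 ± 498 normalized counts (SD, n = 3). Ctsb thus fell in both genotypes, with log2 fold changes of -0.84 ± 0.12 and -0.92 ± 0.12 (limma adjusted p = 2.8e-04 and 1.7e-04). Ctss fell by 0.76 ± 0.15 (limma adjusted p = 0.0020) and by 0.50 ± 0.15 (0.025). Its DKO call rested on single libraries: it was lost without DKO vehicle replicate 1 or 2 or DKO KLA replicate 1 or 3, with an adjusted p of up to 0.11.

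Ctsl, the gene of cathepsin L, an endopeptidase of broad specificity, stood at 1045, 1540.2 and 709.9 normalized counts in LXR-positive vehicle libraries and at 706, 509 and 545 with KLA. In DKO libraries the values were 1582, 2339 and 1492 with vehicle and 533, 1184 and 1073 with KLA. The vehicle libraries of this gene scattered more than those of the other proteases named here, but KLA and vehicle libraries did not overlap in either genotype, barely so in LXR-positive macrophages. The log2 fold change was -0.85 ± 0.32 in LXR-positive (limma adjusted p = 0.071, not passed) and -1.01 ± 0.32 in DKO macrophages (0.039, passed), and the DKO call was lost without any 1 of 4 of the 6 libraries (DKO vehicle 1 or 2, DKO KLA 1 or 3), with an adjusted p of up to 0.15.

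Ctsz and Ctsc moved the other way. Ctsz (cathepsin Z, a carboxypeptidase; ENSMUSG00000016256, chromosome 2, 174427493 to 174439039) stood at 9033, 6409.7 and 9834 normalized counts in LXR-positive vehicle libraries and at 19636, 15601 and 17395 with KLA. Its DKO libraries stood at 5954, 6819 and 7498 with vehicle and at 16901, 13738 and 15575 with KLA. Every KLA library was above every vehicle library of both genotypes, and Ctsz rose by 1.08 ± 0.16 in LXR-positive (limma adjusted p = 4.2e-04) and by 1.19 ± 0.16 in DKO macrophages (2.4e-04).

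Ctsc (cathepsin C, which activates granule serine proteases) stood at 7797, 9451 and 8454 normalized counts in LXR-positive vehicle libraries and at 11039, 12444 and 13118 with KLA. The DKO values were 8084, 6860.5 and 8457 with vehicle and 13528, 13779 and 11789 with KLA. Here too the KLA libraries were the high ones without overlap, and Ctsc rose by 0.51 ± 0.12 (limma adjusted p = 0.0074) and by 0.74 ± 0.12 (7.9e-04). The remaining cysteine proteases did not pass in either genotype: Ctsh had log2 fold changes of -0.31 and 0.05, and Ctso of -0.08 and -0.13, in LXR-positive and DKO macrophages.

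None of the 3 other peptidases passed the test in either genotype. Ctsd, an abundant aspartic protease, had log2 fold changes of -0.04 ± 0.17 and -0.15 ± 0.17 in LXR-positive and DKO macrophages. Ctsa, a carboxypeptidase that also protects the neuraminidase and beta-galactosidase, had 0.07 ± 0.11 and 0.03 ± 0.11. Tpp1, a tripeptidyl peptidase, had -0.17 ± 0.15 and -0.38 ± 0.15 (limma adjusted p = 0.085 in DKO).

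Of the 7 glycosidases, which strip sugars from glycoproteins and glycolipids, Hexa fell and Neu1 rose in both genotypes. Hexa (the alpha subunit of beta-hexosaminidase) stood at 8679.7, 7650.2 and 8702 normalized counts in LXR-positive vehicle and 4881, 3994 and 4982 in KLA libraries. The DKO values were 6795, 7199 and 7573 with vehicle and 3552, 3699.5 and 4206 with KLA. The KLA libraries of both genotypes were below every vehicle library, and Hexa fell by 0.86 ± 0.11 (limma adjusted p = 1.5e-04) and by 0.91 ± 0.11 (1.0e-04).

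Neu1 (the sialidase that removes terminal sialic acid; ENSMUSG00000007038, chromosome 17, 34931253 to 34935953) stood at 771, 695 and 734 normalized counts in LXR-positive vehicle libraries and at 1366, 1203 and 1245 with KLA. In DKO libraries it stood at 706, 814 and 690.2 with vehicle and at 1011, 1024 and 1070.0 with KLA. The KLA libraries were again separate and higher, and those of DKO were below those of LXR-positive macrophages. Neu1 rose by 0.79 ± 0.10 in LXR-positive (limma adjusted p = 9.7e-05) and by 0.49 ± 0.10 in DKO macrophages (0.0031).

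Man2b1 (lysosomal alpha-mannosidase) stood at 6461, 5688 and 5063 normalized counts in LXR-positive vehicle libraries and at 3446, 1731 and 3015 with KLA. The DKO values were 6189, 7853 and 9091 with vehicle and 4276, 5157 and 5698 with KLA. KLA and vehicle libraries did not overlap within a genotype, but LXR-positive KLA replicate 2 was well below the other two. Man2b1 fell by 1.12 ± 0.23 in LXR-positive macrophages (limma adjusted p = 0.0033), whereas its log2 fold change of -0.60 ± 0.23 in DKO macrophages did not pass (0.077). Gusb (beta-glucuronidase) fell by 0.31 ± 0.10 in DKO macrophages (limma adjusted p = 0.044; 0.38 in LXR-positive, log2 fold change -0.13). That call was lost without 5 of the 6 DKO libraries taken singly, the exception being DKO vehicle replicate 3, with an adjusted p of up to 0.15, and with the mouse as a block. Gaa (0.04 and 0.20), Gla (0.36 and 0.14) and Glb1 (-0.12 and 0.10), which digest glycogen, alpha-galactosides and beta-galactosides, did not pass in either genotype.

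Among the genes for lipid breakdown, Psap was the one with the largest change. Its values were 68658, 51968 and 75918 normalized counts in LXR-positive vehicle libraries and 32082, 16896 and 34570.0 with KLA. In DKO libraries they were 47447, 61268 and 67747 with vehicle and 25614, 44685 and 36341 with KLA. All KLA libraries were below the vehicle libraries of their genotype, with a wide spread in each group. Psap fell by 1.28 ± 0.28 in LXR-positive cells (limma adjusted p = 0.0049), while the log2 fold change of -0.75 ± 0.28 in DKO macrophages did not pass (0.074).

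Ppt1 (palmitoyl-protein thioesterase, which removes fatty acids from proteins) rose in both genotypes. It stood at 2151, 2065 and 2120.0 normalized counts in LXR-positive vehicle libraries and at 2952, 2574 and 2852 with KLA. The DKO values were 1906, 2174 and 1959.8 with vehicle and 2649, 2579.8 and 3061 with KLA. The groups did not overlap, and the log2 fold changes were 0.40 ± 0.10 (limma adjusted p = 0.0093) and 0.45 ± 0.10 (0.0051). Asah1 (acid ceramidase) fell by 0.32 ± 0.10 in DKO macrophages (limma adjusted p = 0.039) with a log2 fold change of -0.04 ± 0.10 in LXR-positive ones (0.82). Its DKO call was lost without 5 of the 6 DKO libraries taken singly, the exception being DKO KLA replicate 2 (adjusted p of up to 0.15), and with the mouse as a block. Gm2a, the GM2 activator, had log2 fold changes of -0.21 and -0.04, and Smpd1 of 0.10 and 0.22, none of which passed.

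Of the 8 membrane proteins, 3 fell in both genotypes and none rose. Gpnmb, a glycoprotein of late endosomes and lysosomes that is abundant in lipid-laden macrophages (ENSMUSG00000029816, chromosome 6, 49036546 to 49070929), stood at 55294, 50695 and 53884 normalized counts in LXR-positive vehicle libraries and at 28333, 18964 and 24978 with KLA. In DKO libraries it stood at 50451, 59465 and 50704 with vehicle and at 22887, 31791 and 25193 with KLA. The vehicle libraries of the genotypes overlapped, and every KLA library was far below it. Gpnmb fell by 1.16 ± 0.17 in LXR-positive (limma adjusted p = 2.6e-04) and by 1.02 ± 0.17 in DKO macrophages (8.0e-04).

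Laptm5, a membrane protein of blood-cell lysosomes, fell by 0.77 ± 0.10 (17970.4 ± 984 to 10574 ± 820.4 normalized counts, mean ± SD, n = 3, limma adjusted p = 1.7e-04) and by 0.75 ± 0.10 in DKO macrophages (14375 ± 274 to 8582 ± 821, 2.4e-04). Scarb2 (the receptor that delivers beta-glucocerebrosidase to lysosomes) fell by 0.52 ± 0.12 (limma adjusted p = 0.0064) and by 0.38 ± 0.12 (0.034), the second of which was lost with the mouse as a block and without 5 of the 6 DKO libraries taken singly, all but DKO KLA replicate 2 (adjusted p of up to 0.11). Lamp1 and Lamp2, the main glycoproteins of the lysosomal membrane, had log2 fold changes of 0.01 ± 0.13 and -0.15 ± 0.10 in LXR-positive and 0.02 ± 0.13 and -0.26 ± 0.10 in DKO macrophages and did not pass. Cd63 (-0.43 and -0.18), Cln3 (-0.23 and -0.15) and the calcium channel gene Mcoln1 (-0.13 and -0.39) did not pass either.

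The proton pump did not move as 1 unit. Atp6v0a1 (the a1 subunit of the membrane sector, through which protons pass; ENSMUSG00000019302, chromosome 11, 101009452 to 101063719) stood at 4222, 5415 and 4782 normalized counts in LXR-positive vehicle libraries and at 1597, 1475 and 1336 with KLA. In DKO libraries it stood at 5613, 5274 and 4219 with vehicle and at 1318, 1156 and 1059 with KLA. The KLA libraries were the low ones by a wide margin, and Atp6v0a1 fell to 0.307 of the vehicle level in LXR-positive and 0.235 in DKO macrophages (log2 fold changes -1.71 ± 0.14 and -2.09 ± 0.14, limma adjusted p = 3.8e-06 and 9.4e-07).

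Atp6v1h, a subunit of the ATP-hydrolysing sector, stood at 1492, 1327 and 1439 normalized counts in LXR-positive vehicle and at 2150.0, 2032 and 1916 in KLA libraries, without overlap. It rose by 0.52 ± 0.10 there (limma adjusted p = 0.0029), and its log2 fold change of 0.29 ± 0.10 in DKO macrophages (1131 ± 120.2 to 1376 ± 90.7 normalized counts, mean ± SD, n = 3) did not pass (0.065). Atp6v0d1, a subunit of the membrane sector, stood at 878, 767 and 986 with vehicle and at 1106, 1072 and 1091 with KLA in LXR-positive macrophages. Its rise of 0.32 ± 0.10 (limma adjusted p = 0.035) was lost with the mouse as a block and without 5 of the 6 LXR-positive libraries taken singly, all but vehicle replicate 3 (adjusted p of up to 0.13), and in DKO macrophages the log2 fold change was 0.16 ± 0.10 (0.30). The other 4 pump genes did not pass, with log2 fold changes in LXR-positive and DKO macrophages of -0.08 and -0.28 for Atp6v1a, -0.09 and -0.21 for Atp6v1b2, 0.18 and -0.23 for Atp6v1c1, and -0.06 and 0.26 for the accessory subunit Atp6ap1.

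**Figure D2:**
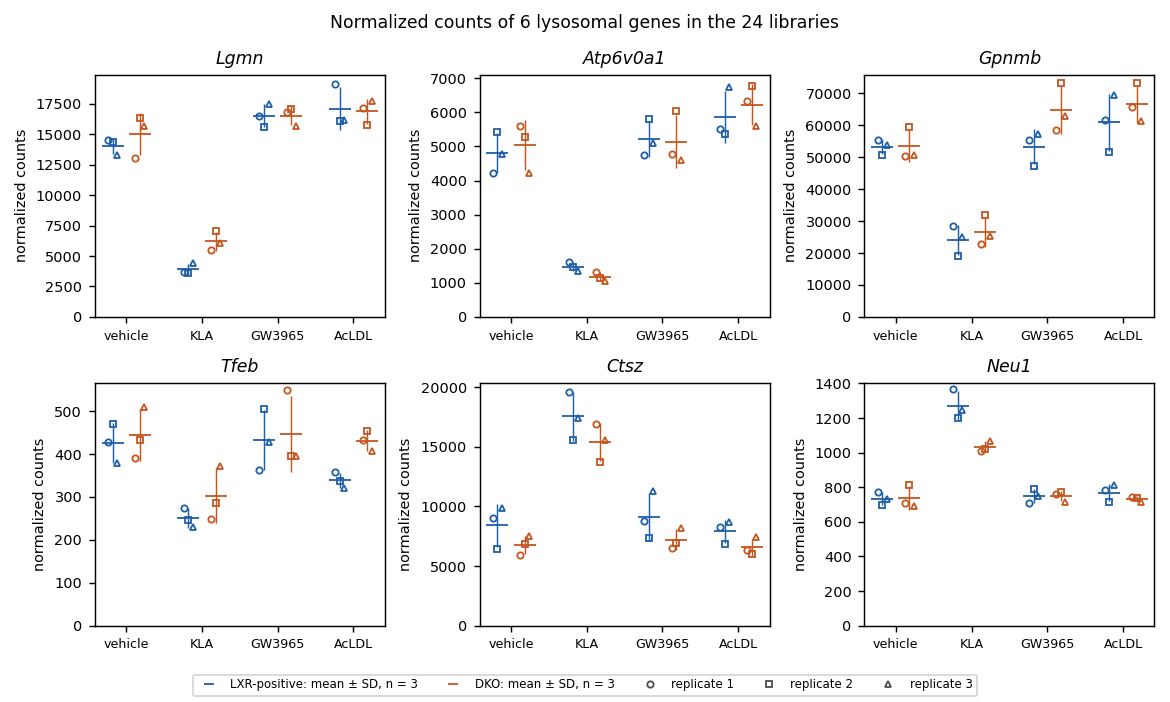
Normalized counts (y axis, starting at 0) of Lgmn, Atp6v0a1, Gpnmb, Tfeb, Ctsz and Neu1 in all 24 libraries by treatment (x axis), LXR-positive in blue and DKO in orange. Symbols are single libraries by replicate number, and lines give the mean ± SD of 3 libraries. The KLA groups stand apart from the other 3 treatments, low for Lgmn, Atp6v0a1 and Gpnmb and high for Ctsz and Neu1.

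Tfeb and Tfe3 differed from each other. Tfeb (ENSMUSG00000023990, chromosome 17, 47737030 to 47792419) stood at 428, 471 and 379 normalized counts in LXR-positive vehicle libraries and at 275, 246 and 229 with KLA. The DKO values were 391, 433 and 509 with vehicle and 249, 287 and 373 with KLA. In both genotypes the KLA libraries lay below the vehicle libraries, closely so in DKO, and Tfeb fell by 0.76 ± 0.16 (limma adjusted p = 0.0041) and by 0.56 ± 0.16 (0.025). The DKO call was lost without DKO vehicle replicate 2 or 3 or DKO KLA replicate 1 or 2, with an adjusted p of up to 0.10.

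Tfe3 stood at 1455, 1279 and 1323 normalized counts in LXR-positive vehicle libraries and at 1476, 948 and 1225 with KLA, and at 1083, 1493 and 1605 and then 1656, 1544 and 1846 in DKO libraries. Vehicle and KLA libraries overlapped in both genotypes, and the log2 fold changes of -0.17 ± 0.17 and 0.29 ± 0.17 did not pass. Grn, the gene of progranulin, whose granulin peptides act inside lysosomes, had log2 fold changes of 0.12 ± 0.14 and 0.27 ± 0.14 and did not pass.

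The KLA calls of the 2 genotypes overlapped in 13 genes with the same direction, 76.5% of the LXR-positive and 81.2% of the DKO calls. Of these 13 genes, 4 rose and 9 fell. The 2 genotypes share no library, but 1 fit with a shared estimate of the spread gave both sets of calls. The overlap among all genes, of which 28.6% and 25.2% passed, was not counted. It is therefore not shown that the overlap is particular to the lysosomal genes. Atp6v0d1, Atp6v1h, Man2b1 and Psap were called in LXR-positive macrophages alone, and Asah1, Ctsl and Gusb in DKO macrophages alone. Passing in 1 genotype alone does not show a difference. The test of the difference in response called 0 of 41 genes, where 0.0689% of all genes passed (limma). edgeR and DESeq2 on the recovered reads called 0 each. An unadjusted limma p under 0.05 was found for 2 of 41 genes, beside 855 of all 15957 genes. The smallest p of the 41 was that of Lgmn, whose log2 fold change was 0.58 ± 0.18 higher in DKO (limma adjusted p = 0.86). The authors' deposited tables of the same differences also called 0 of the 41 genes for each of the 3 treatments. For Lgmn with KLA they gave a log2 difference of 0.572, with an adjusted p nearer the threshold than that of limma (authors' deposited adjusted p = 0.0677).

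Of the 17 LXR-positive calls, 16 were kept under every alternative setting and every omission of 1 library, the exception being Atp6v0d1. Of the 16 DKO calls, 10 were kept throughout. Leaving out DKO vehicle replicate 2 or DKO KLA replicate 1 brought the DKO count from 16 to 10. Summed osteoclast markers stood at 3111 to 5533 normalized counts with vehicle and 1843 to 2275 with KLA in LXR-positive libraries, and at 3912 to 5920 and 1913 to 2480 in DKO libraries (3 of 7 tested markers fell and 2 rose in each genotype). Atp6v0d2 made up most of the vehicle sums, its mean going from 2841 to 99.5 in LXR-positive and from 3718 to 148 in DKO libraries. Acp5 rose from 68.0 to 830 and from 68.3 to 779. Both genes are also in the further lysosomal list below. Of 11 tested neutrophil markers 9 fell in LXR-positive and 5 in DKO macrophages. Summed macrophage markers were higher with KLA (377563 to 449971 against 223912 to 297763 normalized counts in LXR-positive and 297171 to 338852 against 175531 to 209459 in DKO libraries). Lyz2 made up most of these sums, its mean going from 172803 to 285051 in LXR-positive and from 117717 to 192609 in DKO libraries. Of the 9 macrophage markers, 4 rose and 2 fell in LXR-positive and 5 rose and 2 fell in DKO macrophages (limma). Mitochondrial transcripts took 8.76% to 15.5% of reads with KLA and 12.6% to 20.3% otherwise. The part of these markers and transcripts in the lysosomal changes was not tested.

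Of the 7 promoters that hold TCACGTGA, shown above, Atp6v0d1 alone belonged to a gene called with KLA in either genotype, out of 17 called genes with a promoter entry. The other 6 (Atp6v1a, Cln3, Ctsa, Ctsd, Gla and Mcoln1) belonged to the 18 genes with an entry that were not called. This is a description of the letters in these windows.

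A further list of 72 lysosomal genes outside the 41, of which 71 were expressed enough to be tested (Lamp3 was not), gave both directions as well: 21 rose and 16 fell in LXR-positive, and 20 rose and 13 fell in DKO macrophages, where 16.2% of all genes rose and 12.4% fell in LXR-positive and 14% and 11.1% in DKO macrophages. Its median log2 fold changes were 0.03 and 0.04. Among 11 further proton pump genes, Atp6v0d2, an isoform abundant in osteoclasts and macrophages, fell in both genotypes (log2 fold changes -4.82 ± 0.32 and -4.61 ± 0.32), while Atp6v0a2, another isoform of the a subunit, rose by 0.86 ± 0.15 and 0.91 ± 0.15. The 3 cystatins, inhibitors of cysteine proteases, were split: Cst7 rose by 3.61 ± 0.19 and 3.62 ± 0.19, Cstb by 0.82 ± 0.21 and 1.19 ± 0.21, and Cst3 fell by 0.88 ± 0.18 and by 0.57 ± 0.18.

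Among 30 further hydrolases, 8 rose and 7 fell in LXR-positive and 7 rose and 6 fell in DKO macrophages, led by Acp5 (tartrate-resistant acid phosphatase, also an osteoclast marker), which rose by 3.56 ± 0.26 and 3.54 ± 0.26, and Ctse, a cathepsin of the aspartic class, which fell (-2.09 ± 0.31 and -2.07 ± 0.31). Of 17 tested membrane proteins, 6 rose and 4 fell in LXR-positive macrophages, with Tspan3 up by 2.59 ± 0.32 (2.30 ± 0.32 in DKO) and the endolysosomal channel gene Tpcn1 down (log2 fold changes -1.47 ± 0.14 and -1.26 ± 0.14). In the machinery that sorts hydrolases, M6pr, the cation-dependent mannose 6-phosphate receptor, rose by 0.99 ± 0.11 and 1.04 ± 0.11, and Gnptg, a subunit of the enzyme that makes the mannose 6-phosphate tag, fell by 1.07 ± 0.18 and by 0.85 ± 0.18. Mitf (0.29 and 0.20) and Tfec (-0.28 and -0.29), relatives of Tfeb, did not pass in either genotype.

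GW3965 moved no lysosomal gene past the test. Of the 41 genes, 0 were called in LXR-positive macrophages, where 0.267% of all 16116 genes tested passed (limma, 3 of 41 at an unadjusted p under 0.05; edgeR and DESeq2 called 0 each). In DKO macrophages 0 were called, where 0.00621% passed (4 of 41 at an unadjusted p under 0.05; edgeR and DESeq2 0 each). The median log2 fold changes of the 41 were 0.05 and 0.10, beside -0.02 and 0.00 for all genes. The test of the difference between genotypes called 0 as well, beside 0.118% of all genes (2 at an unadjusted p under 0.05, edgeR and DESeq2 0 each). Of all 16116 genes, 988 (LXR-positive), 940 (DKO) and 752 (difference) had an unadjusted limma p under 0.05.

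The smallest p in LXR-positive macrophages was that of Scarb2, at 4577, 3726 and 5076 normalized counts with vehicle and 5506, 5367 and 5975 with GW3965 (log2 fold change 0.34 ± 0.14, limma adjusted p = 0.73). In DKO macrophages it was that of Man2b1, at 6189, 7853 and 9091 with vehicle and 10073, 11003 and 12445 with GW3965 (0.55 ± 0.18, limma adjusted p = 0.85). Both sets of 3 libraries were separate, yet neither difference passed. For the difference in response the smallest p was that of Cd63 (0.43 ± 0.18, limma adjusted p = 0.99). Tfeb stood at 364, 504 and 429 normalized counts with GW3965 in LXR-positive and at 549, 396 and 396 in DKO libraries, overlapping the vehicle values (log2 fold changes 0.01 ± 0.17 and 0.00 ± 0.17). Tfe3 stood at 1407, 1199 and 1518 and at 1616, 1448 and 1745, also with overlap (0.02 ± 0.15 and 0.22 ± 0.15).

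AcLDL gave the same outcome by limma. It called 0 of 41 genes in LXR-positive macrophages, where 0.225% of the 16026 genes tested passed (7 at an unadjusted p under 0.05, edgeR 0, DESeq2 1), and 0 in DKO macrophages, where 0.125% passed (8 at an unadjusted p under 0.05, edgeR 0, DESeq2 1). The median log2 fold changes of the 41 genes were 0.08 and 0.01, beside 0.00 for all genes in both genotypes. The difference between genotypes also gave 0 calls, beside 0.025% of all genes (1 at an unadjusted p under 0.05, edgeR and DESeq2 0 each). Of all 16026 genes, 1979 (LXR-positive), 1004 (DKO) and 543 (difference) had an unadjusted limma p under 0.05.

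The gene called by DESeq2 was in both genotypes Atp6v1b2, the nucleotide-binding B subunit of the pump. It stood at 3445, 3619.7 and 3750.0 normalized counts with vehicle and at 4891, 4465 and 4731 with AcLDL in LXR-positive libraries. In DKO libraries it stood at 3236, 3639 and 3051 with vehicle and at 4453, 4155 and 3973 with AcLDL. The AcLDL libraries were the higher ones in both genotypes without overlap, and the log2 fold changes were 0.38 ± 0.09 (limma adjusted p = 0.13, DESeq2 0.0030) and 0.34 ± 0.09 (limma adjusted p = 0.41, DESeq2 0.031).

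Ctsl, with the largest log2 fold change of the 41 in both genotypes, had 0.69 ± 0.29 and 0.94 ± 0.29 (limma adjusted p = 0.37 and 0.60). Its DKO libraries with AcLDL, at 3047, 4285 and 2998 normalized counts, were all above the vehicle libraries of that genotype. Tfeb stood at 357, 338 and 321 normalized counts with AcLDL in LXR-positive libraries, all below vehicle, and at 433, 454 and 406 in DKO libraries, within the vehicle range. Neither its log2 fold change of -0.32 ± 0.12 (limma adjusted p = 0.32) nor that of -0.04 ± 0.12 passed. Tfe3 stood at 1287, 1152 and 1040.0 and at 1271, 1366 and 1469 (-0.23 ± 0.14 and -0.01 ± 0.14, not passed, with overlap). For the difference in response the smallest p was that of Cd63 (0.47 ± 0.18, limma adjusted p near 1). The further list of lysosomal genes gave 0 calls of 71 with GW3965 and with AcLDL in each genotype by limma.

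**Figure D3:**
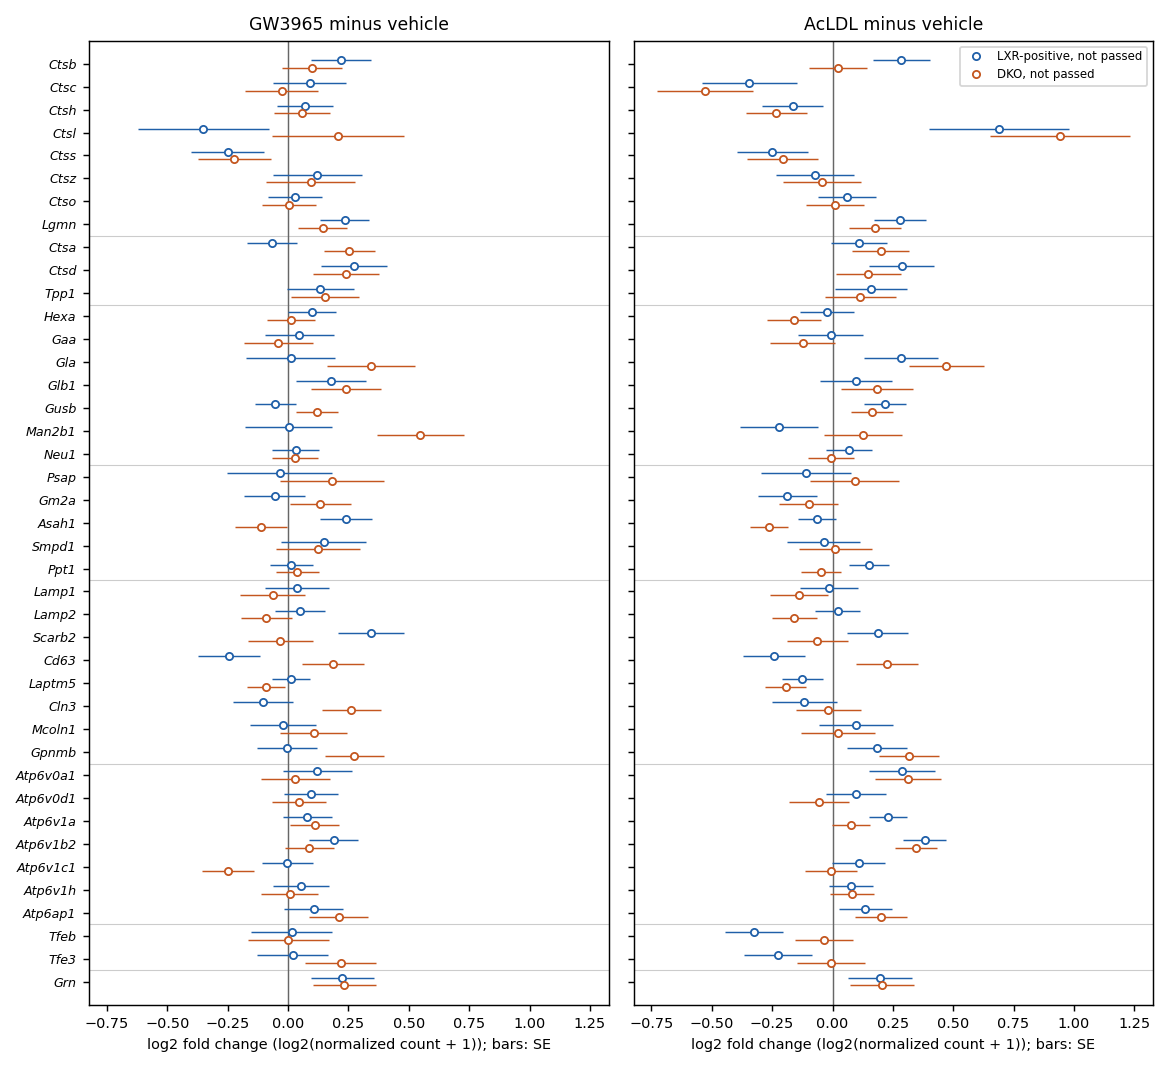
Log2 fold change with GW3965 (left) and AcLDL (right), each minus vehicle on the log2(normalized count + 1) scale (x axis, bars are the standard error, 3 libraries per group), of the 41 lysosomal genes (y axis) in LXR-positive (blue) and DKO (orange) macrophages. All points are open because none passed limma at adjusted p under 0.05, and most lie close to 0, with Ctsl under AcLDL farthest to the right.

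DKO and LXR-positive macrophages were also compared under each treatment. With vehicle, 0 of 41 genes passed, beside 0.316% of all genes (limma, 12 at an unadjusted p under 0.05, edgeR 0, DESeq2 2). Of all 16116 genes, 1965 had an unadjusted limma p under 0.05 with vehicle. The smallest p of the 41 there was that of Laptm5, at 19061, 17701 and 17149 normalized counts in LXR-positive and 14159, 14285 and 14683 in DKO libraries, which did not overlap (log2 difference -0.32 ± 0.08, limma adjusted p = 0.16). With KLA 8 passed, beside 6.87% of all genes, 2 of them higher and 6 lower in DKO, where 3.01% of all genes were higher and 3.87% lower. With GW3965 9 passed, beside 9.64%, 3 of them higher and 6 lower (4.2% and 5.44% of all genes). With AcLDL 11 passed, beside 8.6%, 2 of them higher and 9 lower (3.76% and 4.85% of all genes). The 4 comparisons use the same 6 mice and the vehicle libraries enter each fit, so they are not independent of one another. The median log2 difference of the 41 genes was -0.12 with vehicle, -0.16 with KLA, -0.11 with GW3965 and -0.12 with AcLDL, against 0.01 to 0.02 for all genes.

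In all, 13 genes passed under at least 1 treatment, 4 higher and 9 lower in DKO, and 5 of them (Asah1, Atp6v0d1, Atp6v1c1, Lamp2 and Man2b1) passed under all 3 treatments. With vehicle, the log2 difference of each of the 13 had the same sign, though none passed there. The comparisons share mice and are not independent, so neither recurrence across treatments nor a shared sign is separate evidence. These counts were not made for all genes. It is therefore not shown that they are particular to the lysosomal genes. Whether a genotype difference was larger with a treatment than with vehicle is the test of the difference in response given above, which called none of the 41.

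**Figure D4:**
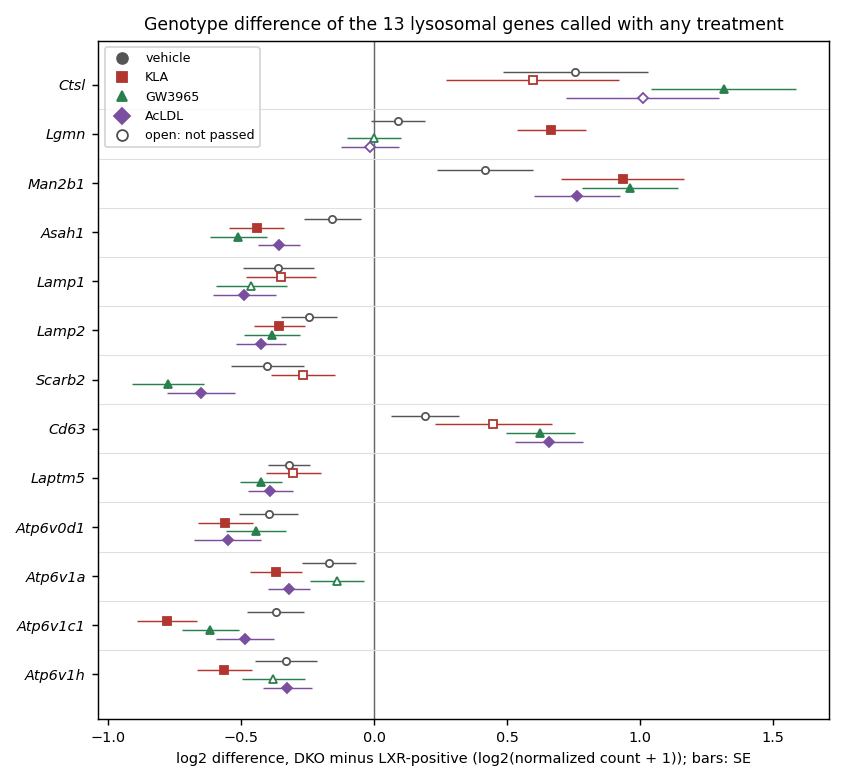
Log2 difference between DKO and LXR-positive macrophages (x axis, DKO minus LXR-positive on the log2(normalized count + 1) scale, bars are the standard error, 3 libraries per group) of the 13 lysosomal genes (y axis) that passed limma with KLA (squares), GW3965 (triangles) or AcLDL (diamonds). Filled symbols passed at adjusted p under 0.05 and open ones did not. The vehicle values (circles) lie on the same side of 0 as the passing values and none of them is filled.

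Several proton pump genes were lower in DKO macrophages. Atp6v1c1, a subunit of the stalk of the ATP-hydrolysing sector (ENSMUSG00000022295, chromosome 15, 38661904 to 38692443), stood with KLA at 2697, 2712 and 2519.7 normalized counts in LXR-positive and at 1584, 1378 and 1672 in DKO libraries. With GW3965 it stood at 2491, 2276 and 2217 and at 1558, 1578 and 1419.9, and with AcLDL at 2461, 2369 and 2714 and at 1700.0, 1739 and 1953. Together with vehicle, its 12 DKO libraries (1378 to 1954) were all below its 12 LXR-positive libraries (2151 to 2714). This held for no other of the 41 genes, and the share of all genes separated in this way was not counted. Each mouse gave several of these libraries, so they are not independent of one another. The log2 difference of Atp6v1c1 was -0.78 ± 0.11 with KLA (limma adjusted p = 0.0057) and -0.62 ± 0.11 with GW3965 (0.0069). It was -0.48 ± 0.11 with AcLDL (0.022) and -0.37 ± 0.11 with vehicle (0.21, not passed).

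Atp6v0d1 stood with KLA at 1106, 1072 and 1091 normalized counts in LXR-positive and at 780.1, 718 and 722 in DKO libraries. Its log2 difference was -0.56 ± 0.10 with KLA (limma adjusted p = 0.014), -0.44 ± 0.11 with GW3965 (0.031) and -0.55 ± 0.12 with AcLDL (0.023). Atp6v1h was lower with KLA and AcLDL (log2 differences -0.56 ± 0.10, limma adjusted p = 0.014, and -0.33 ± 0.09, 0.049). Atp6v1a, the catalytic A subunit, was lower under the same treatments (-0.37 ± 0.10, limma adjusted p = 0.047, and -0.32 ± 0.08, 0.031). In these pump genes the DKO libraries were the low ones without overlap wherever the test passed.

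Of the membrane proteins, Lamp2 was lower in DKO with all 3 treatments (log2 differences -0.36 ± 0.10, -0.38 ± 0.10 and -0.42 ± 0.09 with KLA, GW3965 and AcLDL, limma adjusted p = 0.046, 0.041 and 0.021). Scarb2 stood with GW3965 at 5506, 5367 and 5975 normalized counts in LXR-positive and at 3242, 2797 and 3882 in DKO libraries, and with AcLDL at 4968, 5009 and 5127 and at 3222, 2771 and 3693. The DKO libraries were clearly the low ones, with log2 differences of -0.78 ± 0.14 (limma adjusted p = 0.0074) and -0.65 ± 0.13 (0.014). Laptm5 was lower with GW3965 (-0.43 ± 0.08, limma adjusted p = 0.0097) and AcLDL (-0.39 ± 0.09, 0.021), and Lamp1 with AcLDL (-0.49 ± 0.12, 0.031).

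Cd63, a tetraspanin of late endosomes, was higher in DKO. It stood with GW3965 at 1592, 1449 and 1897 normalized counts in LXR-positive and at 2484, 2567 and 2519 in DKO libraries. With AcLDL it stood at 1727, 1434 and 1786 and at 2442, 2809 and 2533. The DKO libraries were above the others without overlap, and the log2 differences were 0.63 ± 0.13 (limma adjusted p = 0.014) and 0.66 ± 0.13 (0.014).

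Of the hydrolases, Man2b1 was higher in DKO with KLA (values above, log2 difference 0.93 ± 0.23, limma adjusted p = 0.035), with GW3965 (0.96 ± 0.18, 0.0098) and with AcLDL (0.76 ± 0.16, 0.019). With GW3965 it stood at 6883, 4385 and 6198 normalized counts in LXR-positive and at 10073, 11003 and 12445 in DKO libraries, and with AcLDL at 5804, 4316 and 4687 and at 7151, 9419 and 8520.3. Under each treatment the DKO libraries were the high ones without overlap. Ctsl was higher with GW3965 (1041, 829 and 638 against 1835, 2474 and 1869.6 normalized counts, log2 difference 1.31 ± 0.27, limma adjusted p = 0.015), and Lgmn with KLA (0.67 ± 0.13, 0.016). Asah1 was lower in DKO with all 3 treatments (-0.44 ± 0.10, -0.51 ± 0.11 and -0.36 ± 0.08 with KLA, GW3965 and AcLDL, limma adjusted p = 0.028, 0.015 and 0.022).

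These genotype calls leaned on single libraries. With KLA, 1 of the 8 (Atp6v1c1) was kept under every setting and omission, and 1 was called without DKO KLA replicate 2, while omitting any 1 of LXR-positive KLA replicates 2 and 3 and DKO KLA replicates 1 and 3 left 4. With GW3965, 4 of the 9 (Man2b1, Atp6v1c1, Laptm5 and Scarb2) were kept, and 5 were called without LXR-positive GW3965 replicate 1 or without DKO GW3965 replicate 2. With AcLDL, 0 of the 11 were kept throughout: none was called by limma without DKO AcLDL replicate 2, 1 without LXR-positive AcLDL replicate 2, 3 without DKO AcLDL replicate 1, 4 without LXR-positive AcLDL replicate 1 and 5 without LXR-positive AcLDL replicate 3.

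The calls of Lamp2 and Atp6v1a with KLA and of Atp6v1a and Atp6v1h with AcLDL were lost without any 1 of the 6 libraries compared. Thinned to 6448579 reads per library, the genotype comparisons called 6 of the 41 genes with KLA, 7 with GW3965 and 11 with AcLDL. The share of all genes called after thinning was not counted. Neutrophil markers stood higher in the same DKO groups: summed levels with KLA were 2292 to 2751 normalized counts in LXR-positive and 3424 to 7720 in DKO libraries, and 4, 7 and 6 of the 11 tested were called higher in DKO with KLA, GW3965 and AcLDL. Summed stromal markers with GW3965 were 206 to 679 in LXR-positive and 1330 to 7052 in DKO libraries. The genotypes overlapped in these sums with vehicle (75.8 to 774 in LXR-positive and 214 to 3519 in DKO libraries). They also overlapped with KLA (203 to 1046 and 250 to 1997) and with AcLDL (131 to 995 and 224 to 4016). Of 7 tested stromal markers, 1 was called higher in DKO with GW3965 and 0 with vehicle, KLA and AcLDL (limma). Summed macrophage markers were lower in DKO without overlap under every treatment: 223912 to 297763 against 175531 to 209459 normalized counts with vehicle, 377563 to 449971 against 297171 to 338852 with KLA, 263852 to 302491 against 190277 to 251386 with GW3965, and 220872 to 256247 against 139696 to 182376 with AcLDL. Lyz2 made up most of these sums. Of the 9 macrophage markers tested, 0 passed with vehicle and with KLA (limma), 1 was higher and 1 lower in DKO with GW3965, and 1 was higher and 2 lower with AcLDL. The part of these markers in the genotype differences was not tested.

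Of the further list of 71 lysosomal genes, 0 passed between genotypes with vehicle, 3 were lower in DKO with KLA, 2 were higher and 3 lower with GW3965, and 2 were higher and 7 lower with AcLDL. Among all genes, 0.316% passed with vehicle, and 3.01% were higher and 3.87% lower in DKO with KLA. The shares higher and lower were 4.2% and 5.44% with GW3965 and 3.76% and 4.85% with AcLDL. Ids (iduronate 2-sulfatase) was lower under all 3 treatments (log2 differences -0.61 ± 0.11, -0.51 ± 0.12 and -0.58 ± 0.13 with KLA, GW3965 and AcLDL). Atp6ap2, an accessory pump subunit, was lower with KLA (-0.48 ± 0.12), and the stalk subunit gene Atp6v1g1 with GW3965 (-0.37 ± 0.10) and AcLDL (-0.43 ± 0.10). Slc17a5, which exports sialic acid, was lower with AcLDL (-0.66 ± 0.12) and Laptm4a with GW3965 (-0.35 ± 0.10) and AcLDL (-0.44 ± 0.09). Cd68, a lysosomal glycoprotein used here also as a macrophage marker, was higher with GW3965 (0.59 ± 0.13) and AcLDL (0.56 ± 0.12), Galns with GW3965 (0.74 ± 0.16) and Gnptg with AcLDL (0.57 ± 0.16). Some of these genes, and Cstb above, were named after their values had been seen.

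Reads of genes that overlap on opposite strands cannot be separated unless counting used the strand, which the sources used here do not state. Such overlaps of exons concern Ctsb (774 bases with Fdft1), Ctsa (819 with Neurl2 and Pltp), Hexa (255 with Tmem202), Lamp1 (249 with Grtp1), Cln3 (442 with Apobr), Atp6v1h (127 with Rgs20), Ppt1 (129 with Cap1) and Ctsz (10 with Nelfcd). On the same strand Ctsd shares 808 bases with Gm49369 and Glb1 shares 165 with Tmppe.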

How the data were processed

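Total RNA of 24 macrophage cultures (3 libraries in each of 8 groups) was sequenced as 50-base single-end reads, per the labels. The authors deposited 3 tables of normalized counts, 1 per treatment with its vehicle libraries, which hold a signal per gene on a linear scale with the depth divided out. kallisto, DESeq2 and build GRCm38 are named in the submitters' processing notes, without versions, annotation or strand setting. The deposited tables also hold the authors' own log2 fold changes and p-values for the difference in response, which were copied as deposited. All 3 tables held the same vehicle values, and division by the smallest step gave whole reads for 100% of values within 0.01 read, from which library sizes were taken.

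From the deposited values, log2(normalized count + 1) was tested with limma 3.58.1 (trended variance) in R 4.3.3 over the 12 libraries of a table, keeping genes with at least 10 normalized counts in at least 3 libraries, with Benjamini-Hochberg adjustment over all genes tested and a threshold of 0.05. Adding 1 understates the change of low genes. The vehicle comparison of genotypes was taken from the table with GW3965. edgeR 4.0.16 and DESeq2 1.42.0 on the recovered reads, a pseudocount of 8, no filter, all 24 libraries, quantile normalization, a replicate block and omission of each library were alternatives, and thinning of reads was added after seeing the data. The limma test was checked on simulated counts for 1 comparison, the KLA response in LXR-positive macrophages, without differences between mice. The other comparisons, those between genotypes included, were not checked in this way.

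The 41 genes, the further lysosomal list, the marker lists and the rule for named genes were chosen with earlier results of these data known. Named genes were those called in a comparison, the smallest p where none was called, Tfeb and Tfe3, and the largest change in each direction of the further lists. Exon lengths and overlaps came from GENCODE M21. Same-numbered libraries of a genotype were taken as 1 mouse, since the design names 6 mice with 4 treatments: over 36 same-numbered pairs, deviations from the group mean had a median correlation of 0.26 (0.046 to 0.54, 34 above 0.1) across 11697 genes. The spread behind each limma p-value is that between the 3 mice within each group. It was pooled over the groups of both genotypes in a fit and adjusted toward that of all genes. The main test compared vehicle and treated libraries of the same mice as unpaired, and only the alternative with the mouse as a block used the pairing. A single gene of the further list is not reported here.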

Additional observations from a re-analysis of the deposited data

How the results depend on the processing

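Of 71 gene results, 61 were called, and no call changed sign in any alternative. The 1065 values, which include the main setting, held 0 reversals, and 165 values of called genes no longer passed. A change of sign was counted only where the main or the alternative result was called. It was therefore not counted for Tfeb and Tfe3 where neither was called. The count of genes lowered or raised by KLA stayed at 16 to 18 in LXR-positive macrophages when 1 library was left out and ranged from 10 to 15 in DKO macrophages. For the genotype differences, leaving out 1 library gave 1 to 6 genes with KLA, 5 to 13 with GW3965 and 0 to 10 with AcLDL. With KLA, 4 genes differed between genotypes with no filter on low values and 5 after quantile normalization. With GW3965, DESeq2 called 14. With AcLDL, no filter gave 7, quantile normalization 7 and DESeq2 17. With vehicle, DESeq2 called 2 (Atp6v0d1 and Laptm5), and it called 1 in each AcLDL response. The share of all genes called was not counted in any alternative setting, edgeR, DESeq2 and the omissions included. Whether the lysosomal counts shifted more than those of all genes is therefore not shown. The cause of these shifts was not tested.

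With the mouse as a replicate block the KLA responses had 18 and 17 calls in LXR-positive and DKO macrophages, the GW3965 and AcLDL responses and all differences in response had 0, and with the replicate number as a block the genotype differences had 6 with KLA, 11 with GW3965, 10 with AcLDL and 0 with vehicle. Numbers do not pair mice of different genotypes.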
